A study of Mus musculus with 2 samples.

Results

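Potassium channel genes are described here by the unique ATAC-seq peaks at them, that is, by accessible sites that the authors listed for only 1 of 2 populations of mouse adipose progenitors. The members are the protein-coding genes whose symbols begin with Kcn, 93 of the 21886 protein-coding genes of the gene table; 1 further gene with such a symbol was left out. A peak was counted at a gene when its centre lay inside the gene or within 5 kb of it. By this rule 104 peaks lay at potassium channel genes, of 22485 in all, and 1 of them lay at 2 members.

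The CD137+ group and the PDGFRα+ group each had 1 library. Both came from adipose tissue of C57BL/6 mice, were sorted with magnetic beads from SAT or VAT, passed through growth medium and an adipogenic cocktail, and received dexamethasone, a synthetic glucocorticoid, at 1 µM. Every sample analysed here had dexamethasone, so no value measures the drug, and neither the depot of each population nor the number of animals pooled is given in the labels. The extraction text in the labels speaks of zona pellucida and embryonic cells, which is at odds with the tissue given. CD137, a member of the TNF receptor family, is used to mark beige progenitors. PDGFRα, a growth factor receptor, marks stromal progenitors.

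The CD137 list holds 14483 peaks and the PDGFRα list 8002. They give positions without heights, scores or read numbers, so depth is unknown. A gene without a unique peak can be accessible in both populations or in neither. A single library stands for each group, so nothing checks these values against replicates and no test is given. All intervals are 95% intervals that cover counting error only. Of the markers looked at for the labelled cells, 8 of 10 genes had a unique peak, where 3.68 were expected from other genes of like length and 30.2% of all genes had one. The single unique peak at Tnfrsf9, which encodes CD137, was of the PDGFRα list, opposite to the label, and Pdgfra and Adipoq were without any. Of the 12 CD137 peaks at these genes, 6 were at Ebf2 and 3 at Pparg, and the 3 PDGFRα peaks were at Tnfrsf9, Plin1 and Ly6a. Neuronal markers had a peak at 4 of 5 genes (2.52 expected; 5 CD137 and 5 PDGFRα peaks), markers of smooth muscle and pericytes at 3 of 5 (1.45 expected; 1 and 3) and endothelial markers at 1 of 3 (1.16 expected; 0 and 2). Their part in the results below was not tested.

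Potassium channels let potassium leave or enter the cell and so set the membrane voltage. Voltage-gated channels open on depolarisation, calcium- and sodium-activated channels open when those ions rise inside the cell, inward rectifiers and 2-pore domain channels hold the resting voltage, and auxiliary subunits change the gating or the traffic of the pore. In fat, Kcnk3 marks thermogenic adipocytes and restrains their response to noradrenaline, and several potassium currents have been recorded in preadipocytes.

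Before the counts, the start sites under a unique peak are shown, because they tie a peak to a gene most directly. RefSeq promoter sequences of build GRCm38.p6 (mm10) were matched for 68 of the 93 members, and 13 of these members had a unique peak centred within 1 kb of a listed start. The 6 sequences below are the 250 bases upstream of the start at Kcnh1, Kcnh4 and Kcnh5, which are voltage-gated channels of 1 subfamily with CD137 peaks, at Kcnk10, a 2-pore domain channel with a CD137 peak, and at Kcng4 and Kcnj4, which have PDGFRα peaks. Each of these windows lies wholly inside its unique peak. Capitals mark the letters of the searched motifs on either strand, which are the GC box GGGCGG, the TEAD motif GGAATG, the hexamer AGAACA of the glucocorticoid receptor site, the AP-1 motif TGANTCA and the TATA box, searched as TATAAA.
Kcnh1 (chr1:192190527-192190776, plus strand): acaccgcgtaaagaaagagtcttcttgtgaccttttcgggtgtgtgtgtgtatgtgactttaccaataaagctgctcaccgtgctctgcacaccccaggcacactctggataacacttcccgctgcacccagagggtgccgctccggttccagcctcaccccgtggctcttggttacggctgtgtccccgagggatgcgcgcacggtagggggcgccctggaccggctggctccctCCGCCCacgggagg
Kcnh4 (chr11:100759779-100760028, minus strand): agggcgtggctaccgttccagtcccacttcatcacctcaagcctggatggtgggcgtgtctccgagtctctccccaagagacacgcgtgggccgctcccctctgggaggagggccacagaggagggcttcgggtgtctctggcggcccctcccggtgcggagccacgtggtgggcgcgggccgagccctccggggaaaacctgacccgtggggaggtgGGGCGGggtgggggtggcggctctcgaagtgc
Kcnh5 (chr12:75177333-75177582, minus strand): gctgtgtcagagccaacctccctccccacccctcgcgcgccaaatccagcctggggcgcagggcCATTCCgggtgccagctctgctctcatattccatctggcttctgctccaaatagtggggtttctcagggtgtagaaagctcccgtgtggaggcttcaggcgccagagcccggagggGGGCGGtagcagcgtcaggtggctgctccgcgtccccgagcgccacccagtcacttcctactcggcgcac
Kcnk10 (chr12:98575128-98575377, minus strand): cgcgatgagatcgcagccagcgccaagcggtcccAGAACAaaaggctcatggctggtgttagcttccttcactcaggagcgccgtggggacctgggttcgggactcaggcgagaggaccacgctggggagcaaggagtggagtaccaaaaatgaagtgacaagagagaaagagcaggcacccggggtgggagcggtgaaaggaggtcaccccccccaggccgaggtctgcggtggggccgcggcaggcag
Kcng4 (chr8:119635681-119635930, minus strand): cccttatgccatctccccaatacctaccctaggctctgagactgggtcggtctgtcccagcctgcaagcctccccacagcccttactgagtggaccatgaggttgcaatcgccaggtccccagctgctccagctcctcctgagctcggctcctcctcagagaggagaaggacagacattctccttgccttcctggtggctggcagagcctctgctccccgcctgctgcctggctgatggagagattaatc
Kcnj4 (chr15:79505242-79505491, minus strand): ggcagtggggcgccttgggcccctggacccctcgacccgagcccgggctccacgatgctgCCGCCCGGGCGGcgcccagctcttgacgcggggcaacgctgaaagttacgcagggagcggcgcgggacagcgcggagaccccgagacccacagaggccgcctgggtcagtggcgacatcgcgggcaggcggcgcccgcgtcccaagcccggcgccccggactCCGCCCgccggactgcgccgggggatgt

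The GC box was the motif found most often at these starts. Of the 13 promoters with a unique peak, 10 held GGGCGG in the 300 bases from 250 upstream to 50 downstream of the start (76.9%), against 44 of 91 over all potassium channel promoters (48.4%). The share was 52.1% of 956 promoters of other genes that also had a unique peak within 1 kb and 46.2% of 21169 over all promoters of other genes. The share of 76.9% rests on 13 promoters and no interval was computed for it, so an excess of the GC box was not tested. The median GC content was 66.7% in the 13 windows, 58.3% in all potassium channel promoters, 59.0% in the other promoters with a peak and 56.3% in all other promoters. AGAACA occurred in 1 of the 13, that of Kcnk10 (7.69%, against 16.2% of all other promoters), and GGAATG in 1, that of Kcnh5 (7.69%, against 13.6%). TGANTCA and TATAAA occurred in none of the 13, against 7.0% and 12.6% of all other promoters. These are counts of letters in a window and say nothing of a factor bound there.

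Potassium channel genes had a unique peak more often than other genes, and they were also longer. A unique peak of either list lay at 51 of 93 members (54.8%, exact interval 44.2 to 65.2%), where 30.2% of all protein-coding genes had one. CD137 peaks lay at 39 members (41.9%, against 21.3% of all genes) and PDGFRα peaks at 23 (24.7%, against 16.5%). CD137 peaks alone were found at 28 members (30.1%, against 13.8%), PDGFRα peaks alone at 12 (12.9%, against 8.94%) and peaks of both lists at 11 (11.8%, against 7.53%). Of the members 13 (14%) had 3 or more peaks, against 6.16% of all genes. Median gene length was 32.5 kb for members and 17.1 kb for other genes. If each member had a peak as often as the other genes of its length class, 37.7 of 93 (40.6%) would have had one, which is below the interval around the observed share. With 40 narrower length classes the number was 40.2 (43.2%). Among the wider 50% of each list, 33 members had a peak (35.5%, 25.8 to 46.1%), where 29.5% were expected, so that the gap was then within counting error, as it was with equal numbers of the widest peaks of each list (45.2%, 34.8 to 55.8%, with 35.2% expected).

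The number of peaks, in contrast to the number of genes with one, was close to that of other genes of the same length. The median was 1 peak per member and 0 per other gene, and the means were 1.13 and 0.589. Members had 68 pairs of gene and CD137 peak, where the length classes of other genes gave 70.9, a ratio of 0.959 (exact Poisson interval 0.745 to 1.22). They had 37 pairs with PDGFRα peaks, where 39.2 were expected, a ratio of 0.945 (0.665 to 1.30). Per Mb of gene with its flanks, the rates were 6.08 CD137 peaks at members (4.72 to 7.71) and 6.24 at other genes, and 3.31 PDGFRα peaks at members (2.33 to 4.56) and 3.97 at other genes. The CD137 share of the 104 peaks was 64.4% (54.4 to 73.6%), and it was 61.5% of the peaks at other genes and 64.4% of all unique peaks.

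The gap in the share of genes with a peak lay below 100 kb of gene length. Below 20 kb, 12 of 36 members had a unique peak (33.3%, exact interval 18.6 to 51.0%), against 14.2% of all genes of that length. Between 20 and 100 kb it was 20 of 35 (57.1%, 39.4 to 73.7%), against 38.8%. Between 100 and 300 kb it was 6 of 9 (66.7%, 29.9 to 92.5%), against 77.9%, and above 300 kb it was 13 of 13, against 92.8%. The mean number of CD137 peaks was 0.25 per member below 20 kb and 0.0885 per other gene, with a Poisson interval of 0.114 to 0.475 for the members. Above 300 kb the means were 2.69 CD137 peaks per member (1.87 to 3.74) and 3.40 per other gene. For PDGFRα peaks the members' intervals held the mean of other genes in all length classes. The intervals of the CD137 means and of the shares with a peak also held the other genes' value, apart from both measures below 20 kb and the share between 20 and 100 kb.

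**Figure D1:**
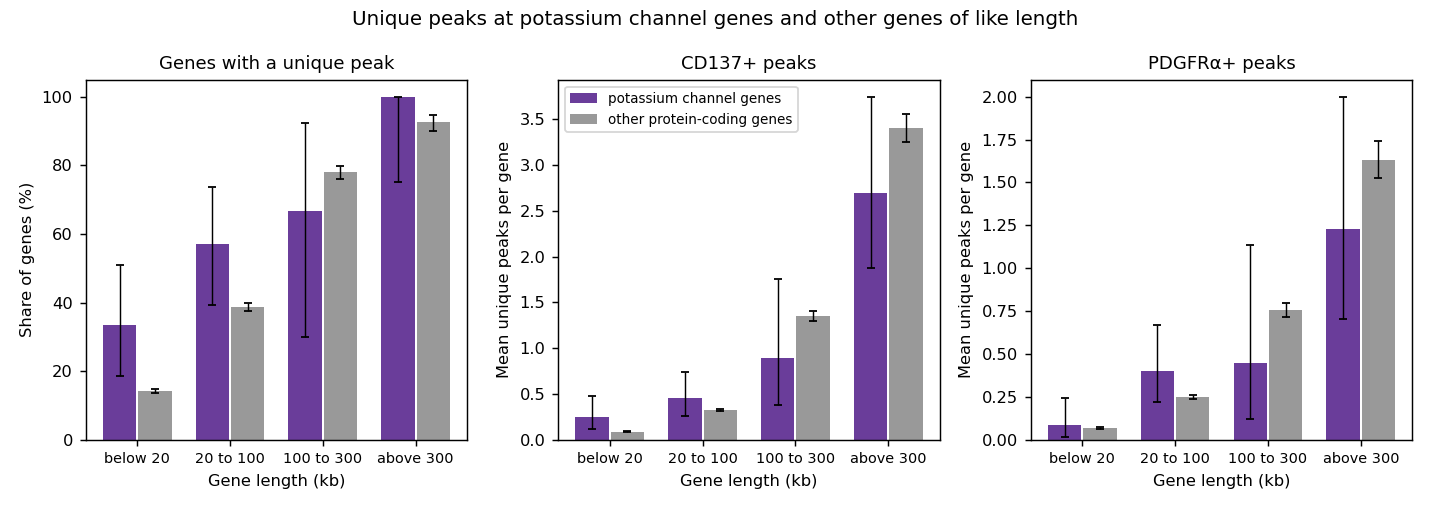
Share of genes with a unique peak (left) and mean CD137+ and PDGFRα+ peaks per gene (middle, right; number) by gene length in kb, for 93 potassium channel genes (purple) and 21793 other protein-coding genes (grey). Bars start at 0 and error bars are 95% exact binomial or Poisson intervals of counting error; the share below 20 kb was 33.3% for potassium channel genes and 14.2% for the others.

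**Figure D2:**
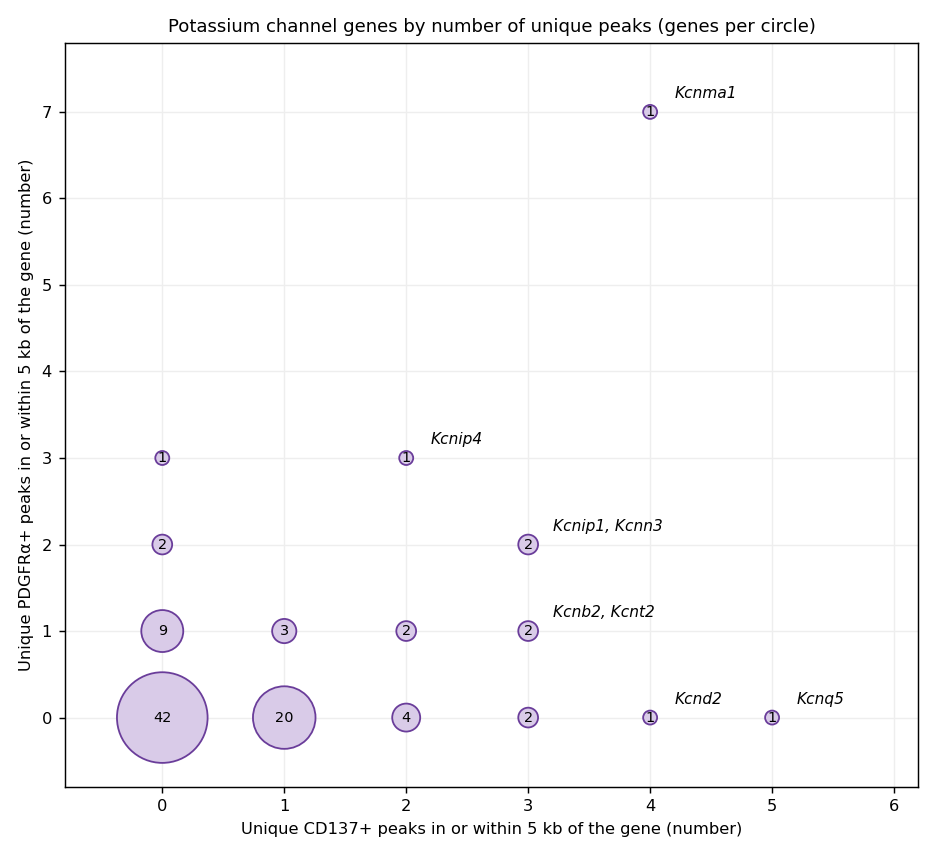
Potassium channel genes by their number of unique CD137+ peaks (x axis) and unique PDGFRα+ peaks (y axis); the number in each circle, and its area, give how many of the 93 genes have that pair of counts, and the 8 genes with 4 or more peaks are named. Kcnma1 is highest, with 7 PDGFRα+ peaks, Kcnq5 is farthest right, with 5 CD137+ peaks, and 42 genes have no peak.

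The voltage-gated genes, the largest class, had 25 of 40 members with a peak, where 17.3 were expected by length, 14 with CD137 peaks only, 9 with PDGFRα peaks only and 2 with both. They had 32 CD137 and 14 PDGFRα peaks, a CD137 share of 69.6% (54.2 to 82.3%), and the ratios to other genes of like length were 0.862 (0.590 to 1.22) and 0.707 (0.386 to 1.19). Peaks of both lists were found at Kcnb2 and Kcnh1.

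Within this class, Kcnq genes encode channels whose slow currents damp excitability in neurons and heart. Kcnq5 (chromosome 1, 21398399 to 21962650) had 5 CD137 peaks, at 21458388 to 21459167, 21635234 to 21636475, 21664663 to 21666064, 21669720 to 21670731 and 21918713 to 21919933. The first was classed down5k under another Ensembl ID than the rest, which were intronic. Kcnq3 (chromosome 15, 65986374 to 66286636), whose channels act in neurons, had 3 CD137 peaks, in introns at 66119958 to 66121726 and 66238659 to 66239967, and at 66286237 to 66287248 over its upper end. Kcnq1, whose channel repolarises the heart, had 1 CD137 peak, in an intron. None of Kcnq1, Kcnq3 and Kcnq5 had a PDGFRα peak.

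Each of the 8 Kcnh genes, which encode channels of the EAG, ERG and ELK kinds, had a unique peak, where 4.62 genes would by length. So had each of the 5 Kcnq, 4 Kcnn and 2 Kcnb genes, where 3.55, 2.235 and 1.31 would by length. Of the subfamilies of more than 1 gene, Kcnab, Kcnd and Kcnt were below the expected number. They had a peak at 0, 1 and 1 genes, where 0.53, 1.85 and 1.31 would by length. The Kcnh genes had 8 CD137 and 4 PDGFRα peaks (66.7% CD137, 34.9 to 90.1%). By length 12.4 and 6.28 peaks were expected, ratios of 0.646 (0.279 to 1.27) and 0.637 (0.174 to 1.63). Of the 8 CD137 peaks, 3 lay within 1 kb of a start, as did 9.08% of CD137 pairs at other genes with a listed start. Kcnh1 had one at 192190082 to 192191421 of chromosome 1, Kcnh4 at 100758946 to 100760174 of chromosome 11 and Kcnh5 at 75176300 to 75177701 of chromosome 12, all centred within 1 kb of the starts printed above, and Kcnh8 had one centred 1.52 kb upstream, at 52600604 to 52601774 of chromosome 17. The other CD137 peak of Kcnh8 was centred 214 kb downstream. The 3 PDGFRα peaks at genes with a listed start lay 9.11 kb or more from it. With so few peaks, a difference between the lists was not tested. At Kcnh1 the peak was centred 307 kb downstream of the start, in an exon (192496778 to 192498121), at Kcnh2, the ERG channel of cardiac repolarisation, 9.11 kb downstream (chromosome 5, 24319961 to 24321002), and at Kcnh6 24.0 kb downstream. Kcnh3 has no listed start, and its PDGFRα peak was centred 1.18 kb inside its upper end. Kcnh7 (chromosome 2, 62693410 to 63184287) had 3 CD137 peaks, at 62697070 to 62697780, 62724844 to 62726574 and 62927796 to 62929390, each centred 256 kb or more downstream of its start.

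Kcnd2, which carries the fast A-type current of dendrites, had 4 CD137 peaks and no PDGFRα peak (chromosome 6, gene 21215346 to 21729805). They lay in introns at 21533638 to 21535007, 21568081 to 21569104, 21592864 to 21593701 and 21609141 to 21610333, a stretch of 76.7 kb in a gene of 514 kb. Its relatives Kcnd1 and Kcnd3 had no peak. The Kcnip genes, whose calcium-binding proteins attach to Kcnd channels, had peaks at 3 of 4 members, where 2.63 were expected by length. Each of the 3 had peaks of both lists, and Kcnip1 and Kcnip4 are above 300 kb, where 92.8% of all genes had a peak. In all there were 7 CD137 and 6 PDGFRα peaks, where 7.45 and 3.75 were expected. The intervals of both ratios held 1 (0.378 to 1.94 and 0.587 to 3.48).

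The delayed rectifier gene Kcnb2 (chromosome 1, 15286925 to 15723751) had 3 CD137 peaks and 1 PDGFRα peak. Of the CD137 peaks, one lay over the lower end of the gene (15286322 to 15287406), one in an intron (15471088 to 15472191) and one in an exon (15719269 to 15720218), and the PDGFRα peak was intronic (15576405 to 15577198). Among the Kcna genes, whose channels set the firing threshold of axons, Kcna4 had 2 CD137 peaks, one of them over its start (chromosome 2, 107289915 to 107291345), Kcna2 had 1, centred 0.582 kb downstream of a listed start (chromosome 3, 107101367 to 107102930), and Kcna10 had 1 PDGFRα peak. Kcnc1, a channel of fast-spiking neurons, had 1 PDGFRα peak within 1 kb of its start (chromosome 7, 46396241 to 46397318). Silent subunits, which form channels together with Kcnb proteins, had 1 peak each at Kcng2 and Kcnv1 (CD137) and at Kcng4 and Kcns3 (PDGFRα). The Kcng4 peak, at 119634704 to 119637922 of chromosome 8, was 3218 bp wide and the widest PDGFRα peak at any member.

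Calcium- and sodium-activated genes had the most PDGFRα peaks for their length. Peaks lay at 6 of 8 members, where 4.86 were expected, with 13 CD137 and 12 PDGFRα peaks (52.0% CD137, 31.3 to 72.2%). Both lists had peaks at 5 of them, against 7.53% of all genes, but the class is long (median 120.8 kb, against 17.1 kb for other genes). The ratio to other genes of like length was 1.03 for CD137 peaks (0.549 to 1.76) and 1.86 for PDGFRα peaks (0.960 to 3.25), and 7 of the 12 PDGFRα peaks were at Kcnma1 alone.

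Kcnma1, the large-conductance channel that opens to both calcium and voltage, had more peaks than any other member, 4 CD137 and 7 PDGFRα peaks (chromosome 14, 23292288 to 24005110). Other genes above 300 kb, a class that also holds Kcnd2 and Kcnq5, had means of 3.40 and 1.63. Their median length was 451.5 kb. At their rate per Mb, 4.2 CD137 and 2.01 PDGFRα peaks would lie at a gene as long as Kcnma1. The PDGFRα peaks, all intronic, lay in 1 stretch of 269 kb with no CD137 peak inside it, at 23624127 to 23625447, 23659301 to 23660704, 23688195 to 23689329, 23695800 to 23697450, 23750810 to 23751978, 23816589 to 23817452 and 23892065 to 23893244. The CD137 peaks lay on both sides of that stretch. Toward the far end of the gene they were at 23289837 to 23291427, 23428261 to 23429683 and 23555206 to 23556131, and the last, at 24004344 to 24005258, was centred 0.596 kb upstream of a listed start.

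In Kcnn3 the lists alternated instead. Kcnn genes encode small-conductance and, in Kcnn4, intermediate-conductance calcium-activated channels. Along Kcnn3 (chromosome 3, 89520164 to 89672494) came a CD137 peak at 89534149 to 89535426, a PDGFRα peak at 89549158 to 89550592, CD137 at 89578654 to 89579658, PDGFRα at 89593397 to 89594224 and CD137 at 89613460 to 89614558, all in introns. Kcnn1 had 1 CD137 peak, centred 0.135 kb from a listed start (chromosome 8, 70856587 to 70857699), and 1 PDGFRα peak inside the gene 6.07 kb from it. Kcnn2 had 1 of each and Kcnn4 had 1 CD137 peak, 4.71 kb outside the gene. The sodium-activated channel gene Kcnt2 (chromosome 1, 140245657 to 140614045) had 3 CD137 peaks in introns, at 140305704 to 140307556, 140341639 to 140342794 and 140415483 to 140416361, and a PDGFRα peak 6.21 kb beyond the last, at 140422571 to 140423857. Kcnt1 had none, and neither had the sperm channel gene Kcnu1, which was put in this class by its symbol and not by what opens its channel.

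**Figure D3:**
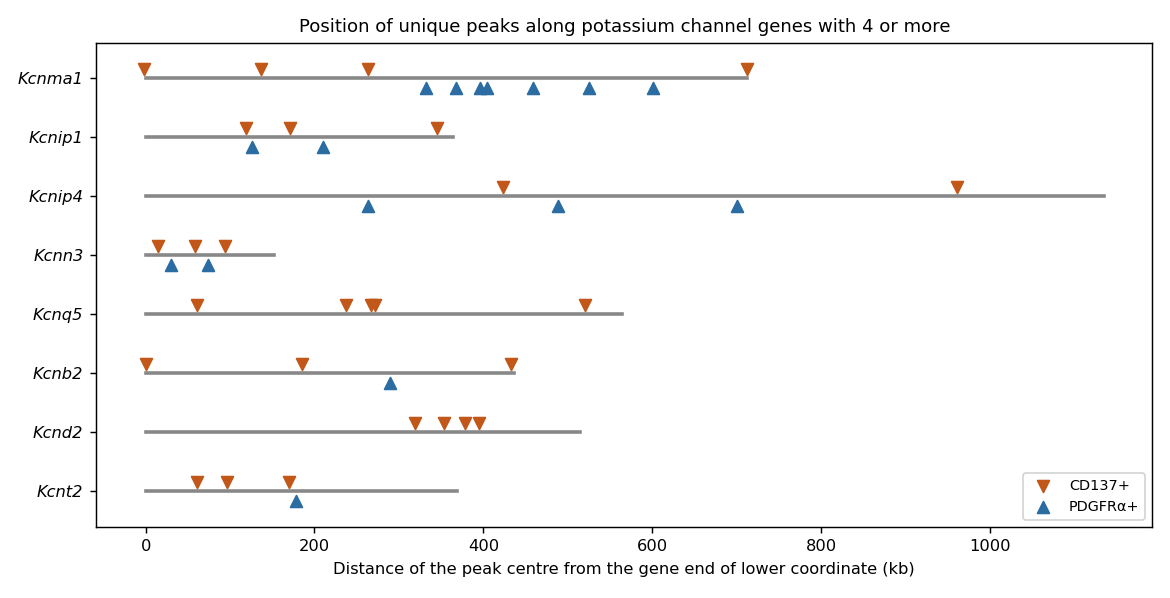
Centres of unique peaks (CD137+ triangles above each line, PDGFRα+ triangles below) along the 8 potassium channel genes with 4 or more peaks, as distance in kb from the gene end of lower coordinate; grey lines are gene spans to scale. In Kcnma1 the 7 PDGFRα+ peaks form 1 block of 269 kb between CD137+ peaks, while the lists alternate in Kcnn3 and Kcnd2 has CD137+ peaks alone.

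Within 5 kb, every peak at a 2-pore domain gene was a CD137 peak, which at this number does not set the class apart. The class had 7 CD137 and 0 PDGFRα peaks at 6 of 14 members, where 4.74 members were expected to have a peak by length. The CD137 share was 100% with an exact interval of 59.0 to 100%, which holds the 61.5% of other genes. By length 5.17 CD137 and 3.41 PDGFRα peaks were expected. Kcnk3 (chromosome 5, 30588170 to 30625270) had 2, both exonic, at 30588342 to 30589463, 0.733 kb inside its lower end, and at 30621859 to 30623339. Kcnk10, a stretch- and lipid-sensitive channel like Kcnk2, had 1 centred within 1 kb of its printed start (chromosome 12, 98573975 to 98575447). Kcnk9, a close relative of Kcnk3, had 1 just outside its upper end (chromosome 15, 72549033 to 72550038). Kcnk1, Kcnk2 and Kcnk12 had 1 each, that of Kcnk12 over the far end of the gene. With windows of 10 kb the class had 8 peaks, 87.5% of them CD137. With windows of 50 kb it had 21, 90.5% of them CD137, against 62.0% of the peaks at other genes with that window. No interval was computed for the shares of the class with these wider windows.

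Inward rectifiers had few peaks, and their split by list depended on the window. Of 15 members 6 had a peak, where 5.12 were expected by length. Within 5 kb, 3 had peaks of the CD137 list alone, 3 of the PDGFRα list alone and none of both. Over all genes the shares were 13.8%, 8.94% and 7.53%, so none of both among 15 members does not set the class apart. The class had 3 CD137 and 4 PDGFRα peaks (42.9% CD137, 9.90 to 81.6%). The CD137 peaks lay at Kcnj1, a renal channel, at Kcnj9, a G protein-gated channel, and 0.747 kb outside Kcnj11 (chromosome 7, 46095836 to 46096916), the pore of the ATP-sensitive channel. PDGFRα peaks lay at Kcnj15 (2), at Kcnj6, another G protein-gated channel (1), and at Kcnj4, within 1 kb of the printed start (1; chromosome 15, 79504938 to 79506493). The peaks at Kcnj1 and Kcnj11 lay outside the genes, and without flanks the class had 5 peaks, 20% of them CD137. With windows of 50 kb it had 18, 61.1% of them CD137. The ratios to other genes of like length were 0.546 for CD137 (0.113 to 1.60) and 1.09 for PDGFRα (0.298 to 2.80).

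Auxiliary subunit genes had peaks at 8 of 16 members, where 5.71 were expected by length. Of these, 4 had CD137 peaks only, 4 had both and none had PDGFRα peaks only (13.8%, 7.53% and 8.94% over all genes). The class had 13 CD137 and 7 PDGFRα peaks (65.0% CD137, 40.8 to 84.6%). The ratios to other genes of like length were 1.24 for CD137 (0.661 to 2.12) and 1.21 for PDGFRα (0.484 to 2.48). Kcnip1 (chromosome 11, 33629339 to 33993348) had 3 CD137 peaks, at 33748027 to 33749666, 33799926 to 33801622 and 33974224 to 33975344, and 2 PDGFRα peaks, at 33754606 to 33755495 and 33838743 to 33839564. The first of each list were 4.94 kb apart, the smallest gap between lists at any member. The last CD137 peak was also counted at Kcnmb1, the smooth muscle subunit of the Kcnma1 channel, which lies within Kcnip1. Kcnip4 (chromosome 5, 48389503 to 49525122), the longest member, had 2 CD137 peaks, at 48812173 to 48813244 and 49350403 to 49351092, and 3 PDGFRα peaks, at 48652708 to 48653735, 48877839 to 48878749 and 49089906 to 49090881. Kcnip2 had 2 CD137 peaks inside the gene, at 45795464 to 45796476 and 45804495 to 45805605 of chromosome 19, and 1 PDGFRα peak, at 45815791 to 45816745, centred 0.205 kb upstream of a listed start. Kcnmb2, a further subunit of the Kcnma1 channel, had a PDGFRα peak 0.233 kb downstream of its start (chromosome 3, 31902557 to 31903314) and CD137 peaks at 31908384 to 31909445 and 32113552 to 32115045. Kcnmb4, Kcne1, which slows the Kcnq1 channel, and Kcne4 had 1 CD137 peak each, and that of Kcne4, 3550 bp wide (chromosome 1, 78818151 to 78821701), was the widest at any member.

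**Figure D4:**
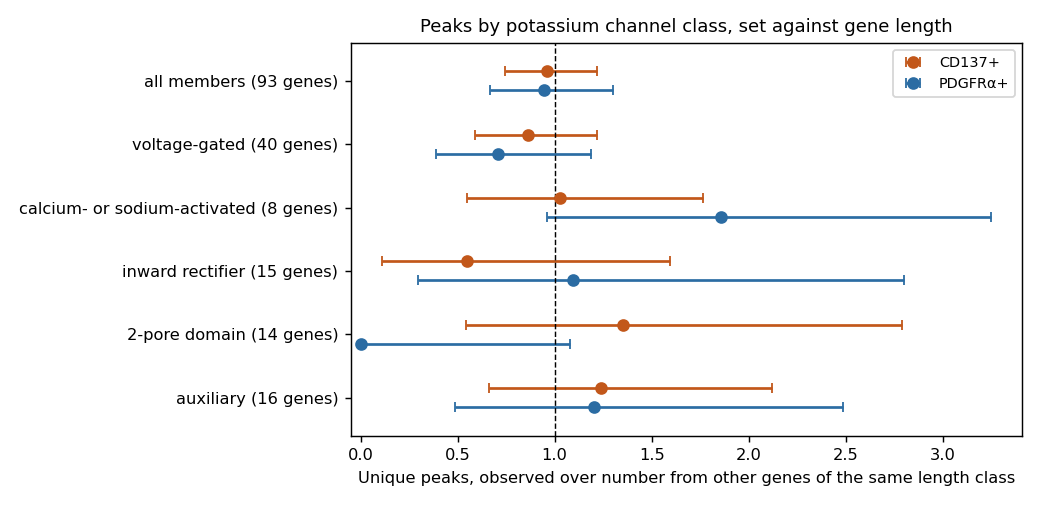
Unique peaks at each potassium channel class divided by the number that other genes of the same length class would give (x axis, ratio), for CD137+ and PDGFRα+ peaks; lines are 95% exact Poisson intervals of counting error and the dashed line marks 1. Every interval includes 1; the PDGFRα+ ratio was 1.86 for calcium- or sodium-activated genes and 0 for 2-pore domain genes.

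The remaining 42 members had no unique peak. The 5 longest of them were Kcnd3 (222 kb), Kcnc2 (196 kb), Kcnj3 (186 kb), Kcnk13 (99.5 kb) and Kcnu1 (89.3 kb). Just inside the 5 kb limit lay the CD137 peak at Kcnn4, 4.71 kb away, and just outside it a CD137 peak 5.15 kb from Kcna6. Between 5 and 10 kb there were 4 CD137 and 4 PDGFRα pairs of gene and peak, against 11 and 3 outside the gene but within 5 kb. Among the 11 is the peak counted at Kcnmb1, whose centre lies inside Kcnip1.

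Unique peaks near a start were more frequent at members than at other genes. Of 68 members with a listed start, 13 had a unique peak centred within 1 kb of one (19.1%), where 4.91% of all 17491 genes with a listed start had one. CD137 peaks were at 8 of them (Kcna2, Kcna4, Kcnh1, Kcnh4, Kcnh5, Kcnk10, Kcnma1 and Kcnn1; 11.8%, against 3.11%) and PDGFRα peaks at 5 (Kcnc1, Kcng4, Kcnip2, Kcnj4 and Kcnmb2; 7.35%, against 1.88%). No member had a peak of both lists near a start, which does not set members apart, because few genes had both. Of the 17491 genes, 544 had a CD137 peak there, 329 a PDGFRα peak and 858 a peak of either list. No interval was computed for these shares of genes. Listed starts numbered 1.34 per member and 1.22 per other gene. Over pairs of gene and peak, 16% of 50 CD137 pairs at members were within 1 kb of a start (exact interval 7.17 to 29.1%), against 9.08% at other genes, and 17.2% of 29 PDGFRα pairs (5.85 to 35.8%), against 8.42%. Members thus differed more from other genes in how many had a peak near a start than in the share of their peaks there, for which the PDGFRα interval and the CD137 interval both held the other genes' value.

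The deposited classes up5k and down5k did not follow the strand of the gene, which bears on how the members' peaks are labelled. Among all unique peaks outside a gene with no other protein-coding gene within 10 kb, those at the start side of minus-strand genes were classed down5k in 91.8% of the 158 cases that had either class, and those at the start side of plus-strand genes were classed up5k in all 126 such cases. At the far end of minus-strand genes all 175 such peaks were classed up5k. Of the 8 potassium channel peaks within 1 kb of a minus-strand start, 5 were classed down5k (Kcng4, Kcnh5, Kcnj4, Kcnma1 and Kcnn1), 2 were classed up5k under the ID of another gene (Kcnh4 and Kcnip2) and 1 was intronic (Kcnk10). The peaks at Kcnk12 and Kcns3, both on the minus strand, had the class up5k at the far end of the gene.

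By class, 33 of 67 CD137 peaks at members were intronic (49.3%, exact interval 36.8 to 61.8%), against 59.1% at other genes, and 21 of 37 PDGFRα peaks (56.8%, 39.5 to 72.9%), against 55.1%. The class down5k held 15 CD137 peaks at members (22.4%, 13.1 to 34.2%), against 10.7% at other genes, and 4 PDGFRα peaks (10.8%, 3.03 to 25.4%), against 10.8%. Up5k held 11 CD137 (16.4%, against 13.4%) and 5 PDGFRα peaks (13.5%, against 16.1%), and exons held 7 (10.4%, against 13.6%) and 7 (18.9%, against 15.2%). Peaks at members were slightly narrower, with medians of 1177 bp for CD137 and 1179 bp for PDGFRα, against 1250 and 1262 bp at other genes.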

How the data were processed

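Each of the 2 samples has 1 deposited list of unique peaks. Per the file headers, each peak has its chromosome, its 2 positions, the Ensembl ID of a gene and a class of place, and the authors deposited no other value or score. Per the submitters' processing notes, the tool CASAVA 1.8 and the build mm10 were named, with no role stated. Alignment, peak calling, the threshold, read shifting and what made a peak unique are not described, and each can change the length of a list. Neither the headers nor the labels say whether starts count from 0 or 1.

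Gene spans came from a RefSeq table of GRCm38.p6 (mm10), without mitochondrial genes, and strands and starts from the RefSeq promoter table. Peak centres were placed in genes with 5 kb flanks, so 1 peak can count at several genes. Length classes were below 20, 20 to 100, 100 to 300 and above 300 kb. Members, classes and lists were chosen with earlier results of these data known. Members with a peak are named, except for some that are counted in the totals but not reported here, and positions are given for those named that have 3 or more peaks, with a peak within 1 kb of a start (or, without a strand, of either end), and for Kcnk3. Where an interval is given, it is exact binomial for shares and exact Poisson for counts. The counting steps were tested on simulated data. Computations ran in Python 3.11.15 (scipy 1.17.1, pandas 2.3.3, numpy 2.4.6), and plots were drawn with matplotlib 3.10.9.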

Additional observations from a re-analysis of the deposited data

How the results depend on the processing

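No paired analysis was possible because each group has a single library. Leaving one out was not run, and depth was not equalised. Of 108 values under alternatives, 89 stayed within the main value's interval, or within 1.5 times a main count. The settings for the number expected by length and for starts were chosen after seeing the data.

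The CD137 share at members was 61.3 to 67.7% except with equal numbers of the widest peaks of each list, where it was 47.1%, against 48.7% at other genes; this setting keeps fewer CD137 peaks. It also gave 2.95 CD137 peaks per Mb, 30 peaks at voltage-gated genes (53.3% CD137), 4 at 2-pore domain and 13 at auxiliary genes. The wider 50% of each list left 33 members with a peak, and 2.77 CD137 and 1.34 PDGFRα peaks per Mb. It left 19 peaks at voltage-gated, 12 at calcium- or sodium-activated, 4 at 2-pore domain and 6 at auxiliary genes, the last all CD137 (100%). With it 8 members had a peak near a start, and the share of all genes with one was not computed for this setting. Windows of 50 kb gave 87 peaks at voltage-gated, 18 at inward rectifier and 21 at 2-pore domain genes. Placed by gene span, 87.5% of the members' peaks were inside the gene, against 65.4% classed intron or exon by the authors. Members with a peak numbered 1.35 times those expected by length, and 1.16 to 1.40 times in the other settings; the interval of the share held the expected value with the wider 50% of each list (25.8 to 46.1%, expected 29.5%) and with equal numbers of the widest peaks (34.8 to 55.8%, expected 35.2%). Without Kcnma1, members had 2.87 PDGFRα peaks per Mb.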

Other observations

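At other ion channel, pump and cotransporter genes, the exact Poisson intervals of the peak counts held the numbers expected from other genes of like length for either list, in each of the 6 groups looked at. These intervals are wide, and counts were above the expected number in some groups and below it in others. The shares with a unique peak stand beside 30.2% of all protein-coding genes, and the groups differ in gene length. Calcium channel genes (median length 104 kb) had a unique peak at 17 of 26, where 15.5 were expected, with 35 CD137 and 27 PDGFRα peaks, where 35.4 and 18.6 peaks were expected (intervals 24.4 to 48.7 and 17.8 to 39.3). Cacna1c, the L-type channel of heart and smooth muscle, had 7 CD137 and 4 PDGFRα peaks, Cacna2d3 had 5 and 3, and Cacnb2 had 4 and 4. Sodium channel genes had peaks at 7 of 14, with 7.43 genes expected (7 CD137 and 4 PDGFRα, with 11 and 6.49 peaks expected), TRP channels at 9 of 24, with 11.8 genes expected (13 and 8, with 18.6 and 10.9 expected), most of them at Trpm3 (7 and 5), and Clcn genes at 3 of 9, with 2.90 expected (5 and 2, with 3 and 2.02 expected). HCN channels, which pass the pacemaker current, had peaks at 2 of 4 genes, with 1.60 expected, and these were 2 CD137 and 0 PDGFRα peaks, with 3.9 and 2.02 expected. Potassium pumps and cotransporters had peaks at 7 of 16 genes, with 5.71 expected. None had both lists, where 7.53% of all genes had both. These genes had 6 CD137 and 2 PDGFRα peaks, where 4.69 and 3.60 were expected. Slc12a3, the sodium chloride cotransporter of the kidney, had 2 CD137 peaks.

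Along single potassium channel genes, 33 neighbouring pairs of peaks were of the same list and 21 of opposite lists. Their median gaps were 34.1 and 44.4 kb, and 5 and 4 pairs lay within 10 kb. Kcnma1 alone gave several of the same-list pairs. Pairs at other genes were not counted, and no number was worked out from the CD137 share, so grouping by list was not tested.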
